A study of Homo sapiens with 16 samples.

Results

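The heat shock and chaperonin genes are 44 of the 26485 genes in the deposited count table, chosen by symbol from a list of heat shock factor targets, HSP70 and HSP90 chaperones with their co-chaperones, TRiC/CCT subunits and prefoldin subunits, and all 44 symbols were found. They were read in 16 RNA-seq libraries of 2 human cancer cell lines, PC3 from prostate and HeyA8 from ovary, with 8 libraries each. Both lines are labelled wild type, and each was mock treated or transfected through a lipid reagent with siNT1, siGGGGGC or siCAG. siNT1 is the nontoxic control siRNA, and siGGGGGC (named siMxy in the sample titles) is a toxic siRNA named for the guide positions 2 to 7 that pair with targets (the seed). siCAG is another siRNA, and the labels do not give its sequence. Only the CAG in its name was used here, to look for CTG runs. RNA was taken at 24 and 48 h, 1 library per condition and time, so each condition has 2 libraries, taken as its replicates, and every SD also holds the difference between times. The labels give a dose of 1 nM, whereas the study's methods speak of a higher dose, and no label says whether libraries came from separate cultures, so p-values measure only the spread between these libraries. Library totals were 27937092 to 29971612 counts in PC3 and 29128446 to 31790209 in HeyA8. Levels below are counts relative to library size (CPM) scaled by the trimmed mean of M-values (TMM) within a line. Length-scaled levels are the exception and used TMM over all 16 libraries. Log2 fold changes carry their standard error (SE), and a gene is called at an edgeR p under 0.05 after Benjamini-Hochberg adjustment over all genes tested. Both siRNAs are compared with the same siNT1 libraries, so the differences after siGGGGGC and after siCAG in a line are not independent of each other.

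The markers of the lines were mixed. PC3 libraries held 0 counts of KLK3 and KLK2, but 86.2 to 524 CPM of the prostate factor HOXB13. HeyA8 libraries held 59.5 to 217 CPM of the ovarian lineage factor PAX8, at most 5 counts of MUC16 and at most 3 of the epithelial marker CDH1. Of other epithelial markers, KRT8 was at 273 to 932 CPM in HeyA8 and 129 to 263 in PC3. KRT18 was at 265 to 761 CPM in HeyA8 and 174 to 325 in PC3. Of the blood markers, PTPRC had at most 12 counts in any library, CD14 at most 58 and HBB at most 1. In bulk RNA, fewer cells of a type and less RNA per cell cannot be told apart.

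Molecular chaperones bind proteins that are not yet folded or have come unfolded. HSP70 holds short hydrophobic stretches in a cycle driven by J-domain proteins (the HSP40 family) and reset by nucleotide exchange factors such as the HSP110 and BAG proteins, and it hands clients such as kinases and steroid receptors to HSP90. Prefoldin passes actin and tubulin to the ring-shaped chaperonin TRiC/CCT, while HSP60 with its lid HSP10 folds proteins inside mitochondria. The inducible genes among them are switched on by the transcription factor HSF1, which binds the heat shock element, an array of inverted GAA units, when unfolded proteins draw chaperones away from it.

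The heat shock element was searched in RefSeq promoter windows of hg38 (250 bases before to 50 after a transcription start), as 3 units in the form GAANNTTCNNGAA or TTCNNGAANNTTC, which are reverse complements of each other. Of the members, 38 of 44 matched at least 1 of 51 windows, and 7 of these windows (13.7%), from 7 genes, held such an array, against 172 of 35116 windows of all genes (0.490%). The members were chosen in part as heat shock factor targets, so the choice itself favours a higher share than over all genes. The 7 genes were HSPA8, HSP90AA1, HSP90AB1, HSPD1, DNAJA1, DNAJB6 and CHORDC1. The windows of HSPA1A, HSPA1B, BAG3, HSPH1 and DNAJB1 held no array spelled exactly so. The arrays of 4 genes whose levels are described below are shown because they carry the units in full (the one nearest the start where a gene had several), with the GAA and TTC units in capitals, each on the strand of its gene:

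HSP90AA1, chr14:102087112-102087140, minus strand: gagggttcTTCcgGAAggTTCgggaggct
HSPA8, chr11:123062171-123062199, minus strand: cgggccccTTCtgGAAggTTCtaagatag
DNAJB6, chr7:157336865-157336893, plus strand: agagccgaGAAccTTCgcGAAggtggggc
CHORDC1, chr11:90223079-90223107, minus strand: aaattcgcGAAggTTCctGAAacgcaacg

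In mock cells HSP90 and the constitutive HSP70 stood far above the rest. Levels here were scaled by TMM over all 16 libraries and to transcript length. HSP90AB1, the constitutive HSP90, was at 923 ± 17.3 CPM per kb in PC3 (SD, n = 2) and 1692 ± 21.0 in HeyA8. HSP90AA1, its stress-inducible partner, was at 870 ± 68.3 and 2125 ± 0.710, and HSPA8, the constitutive HSP70, at 847 ± 95.6 and 2330 ± 307. The mitochondrial chaperonin HSPD1 (HSP60) followed as the fourth in both lines, at 443 ± 15.3 and 748 ± 36.0 CPM per kb. In PC3 the SDs of the first 3 genes overlapped, so their order was not resolved.

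**Figure D1:**
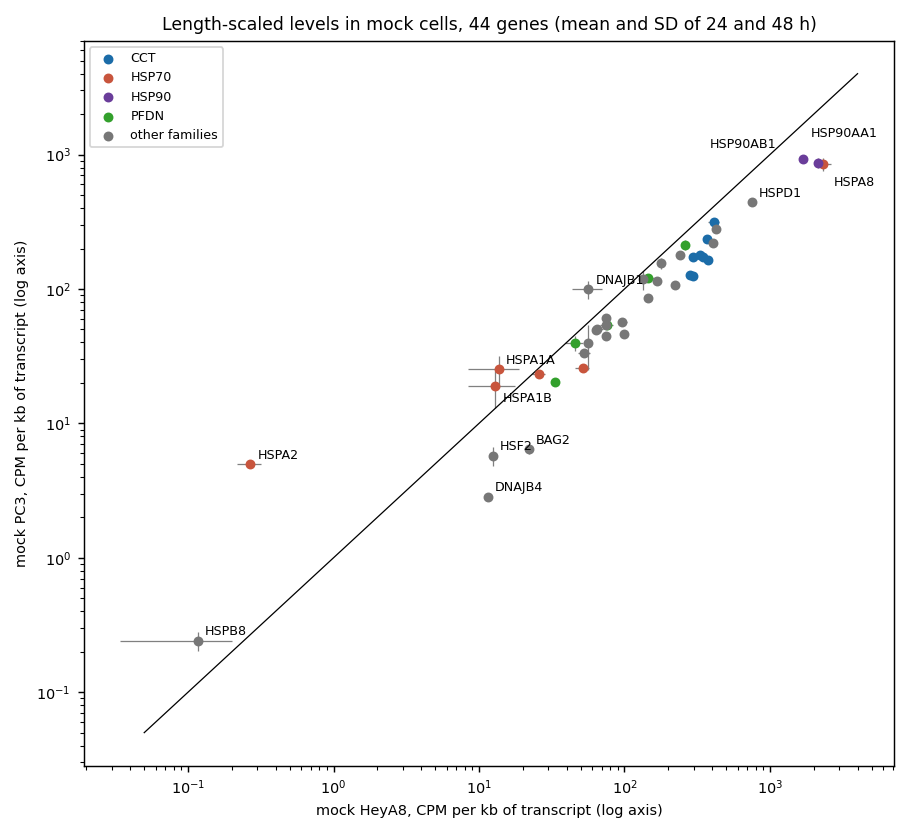
Length-scaled levels of the 44 genes in mock cells, CPM per kb of transcript with TMM over all 16 libraries, on log axes. HeyA8 is on the x axis and PC3 on the y axis. Points show means of the 24 and 48 h libraries, bars SD and colours families. Most genes sit below the line of equality; HSPA2 stands apart above it, at 4.98 in PC3 and 0.268 in HeyA8.

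As counted, the inducible HSP70 genes were low by comparison. HSPA1A and HSPA1B, which encode the stress-inducible HSP70, were at 25.2 ± 6.79 and 19.0 ± 5.88 CPM per kb in PC3 and at 13.7 ± 5.23 and 12.97 ± 4.59 in HeyA8. Their coding sequences differ at 4 of 1926 positions. Reads that fit both copies may be missing from the counts, so these levels may be too low, which was not tested. At the bottom, HSPB8, the small heat shock protein that works with BAG3, had 6 to 20 counts in the PC3 libraries and 0 to 15 in HeyA8, where 0 counts in a single library were reached after siGGGGGC at 48 h. In HeyA8 it was the only member too low to be tested.

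Many chaperone mRNAs were lower in PC3 than in HeyA8. Between mock PC3 and mock HeyA8, 21 of 44 members were lower in PC3 and 3 higher, when 22.0% of the 15887 genes tested were lower and 29.0% higher. The members' median difference was -0.66 (log2), against 0.10 over all genes tested, and 39 of 44 members had a negative value. Without the 24 h PC3, 48 h PC3 or 48 h HeyA8 mock library 15 members were called in place of 24, and 34.4%, 34.5% and 31.1% of all genes in place of 51.0%. HSPA8 was 1.47 ± 0.23 lower on the log2 scale (adjusted p = 0.000383) and HSP90AA1 1.29 ± 0.26 lower (adjusted p = 0.00184). Of the 8 TRiC/CCT subunits, 7 were called lower, from CCT4 at -1.24 ± 0.21 (adjusted p = 0.000585) to CCT8 at -0.65 ± 0.16, and CCT3 was at -0.40 ± 0.24 (adjusted p = 0.187). DNAJB4, a J-domain protein, gave the lowest value of the 44, -2.11 ± 0.63, followed by BAG2, an HSP70 exchange factor, at -1.77 ± 0.26. The 3 higher genes were the inducible HSPA1A at 0.91 ± 0.22 and DNAJB1 at 0.83 ± 0.19, an inducible J-domain protein, and HSPA2, an HSP70 abundant in testis, at 4.22 ± 0.35. The lines differ in every property of their origin, and none of these was tested.

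With the 8 libraries of a line, no member was called between siNT1 and mock by edgeR. In PC3, 0 of 44 members passed the test between siNT1 and mock in edgeR and 1 had an unadjusted p under 0.05, where 9.01% of all genes did. DESeq2 called 1 member and 1.76% of all genes. In HeyA8, 0 of 43 tested members passed in edgeR or in DESeq2 and 0 had an unadjusted p under 0.05, against 1.28% of all genes. With the 4 compared HeyA8 libraries alone, edgeR called 4 members and 11.8% of all genes. The member with the lowest value in both lines was CHORDC1 (morgana), an HSP90 co-chaperone. It was at 116 and 116 CPM at 24 and 48 h in mock PC3 and at 76.0 and 34.1 after siNT1. In HeyA8 it was at 137 and 160 in mock cells and 86.9 and 97.7 after siNT1. All 4 siNT1 libraries were thus below the mock libraries of their line, with differences of -1.15 ± 0.32 in PC3 (adjusted p = 0.294) and -0.68 ± 0.48 in HeyA8 (adjusted p = 1). CHORDC1 is singled out here after its values were seen, because its siNT1 level is the base of the comparisons that follow.

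**Figure D2:**
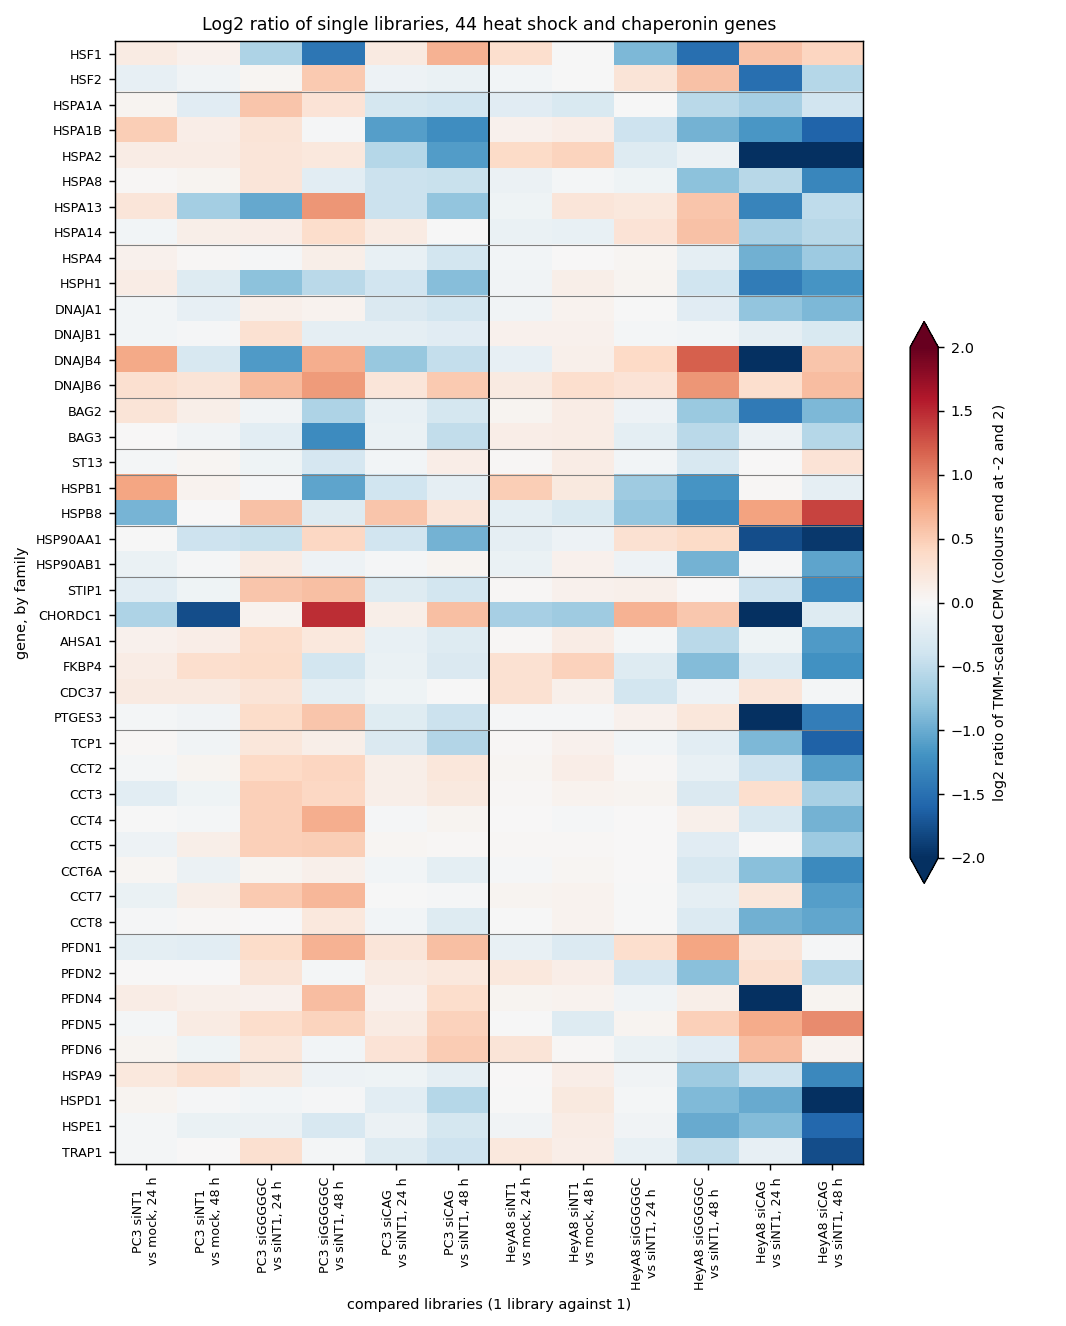
Log2 ratios between single libraries for the 44 genes, rows ordered by family and columns by line, siRNA and time, blue for lower and red for higher than the control library named under the column. In the siNT1 columns 5 genes go past 0.5 in either direction at a time (HSPA13, DNAJB4, HSPB1, HSPB8 and CHORDC1), CHORDC1 in both lines, and the HeyA8 siCAG columns are mostly blue, with medians over 43 genes of -0.42 at 24 h and -0.90 at 48 h.

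siGGGGGC was compared with siNT1 to ask what the toxic seed does to mRNA levels. HSF1, the master regulator of the heat shock response, had the lowest value of the members in both lines. In PC3 it was at 125 and 112 CPM at 24 and 48 h after siNT1 and at 82.0 and 41.4 after siGGGGGC. In HeyA8 it was at 181 and 144 after siNT1 and at 96.8 and 50.6 after siGGGGGC. The 4 siGGGGGC libraries lay below every siNT1 and mock library of their line, where mock cells were at 112 and 106 in PC3 and 144 and 145 in HeyA8, and the 48 h library was the lower one in each line. The log2 fold changes were -0.97 ± 0.28 in PC3 (adjusted p = 0.0654) and -1.18 ± 0.28 in HeyA8 (adjusted p = 0.268), neither past the threshold in the fit of the 8 libraries. DESeq2 gave adjusted p values of 0.0119 and 0.0158 for the same comparisons. In edgeR the PC3 value passed without a filter on low counts (adjusted p = 0.0426), and the HeyA8 value passed with the 4 compared libraries alone (adjusted p = 2.35e-05) and without the siCAG libraries (adjusted p = 0.0340). The siGGGGGC library left in decided the size: in PC3 the value was -1.56 without the 24 h library (adjusted p = 0.00278) and -0.56 without the 48 h library (adjusted p = 0.120), and in HeyA8 -1.55 (adjusted p = 0.246) and -0.86 (adjusted p = 1). Its paralogue HSF2 was at 0.29 ± 0.20 in PC3 and 0.42 ± 0.29 in HeyA8.

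Of the inducible genes DNAJB1, HSPH1, BAG3, HSPA1A and HSPA1B, none was called against siNT1 after siGGGGGC in either line by edgeR with the 8 libraries, while against mock HSPH1 was called lower in PC3 (-0.74 ± 0.22, adjusted p = 0.0467). DNAJB1 was at 217 and 275 CPM after siNT1 and at 267 and 243 after siGGGGGC in PC3, and in HeyA8 at 101 and 143 after siNT1 and 98.9 and 138 after siGGGGGC. The groups overlapped in both lines, with log2 fold changes of 0.07 ± 0.16 and -0.05 ± 0.20. HSPH1 (HSP105), an inducible exchange factor, was at 378 and 283 CPM after siNT1 and 214 and 196 after siGGGGGC in PC3, a change of -0.67 ± 0.22 (adjusted p = 0.0810), and at 415 and 530 against 433 and 400 in HeyA8, a change of -0.16 ± 0.23. BAG3, which links HSP70 to selective autophagy, was at 84.8 and 137 after siNT1 and 73.1 and 57.3 after siGGGGGC in PC3, a change of -0.70 ± 0.26 (adjusted p = 0.116). In HeyA8 its values were 142 and 149 after siNT1 and 124 and 103 after siGGGGGC, a change of -0.37 ± 0.23 (adjusted p = 0.662). The siGGGGGC libraries of BAG3 lay below the siNT1 libraries in both lines.

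The inducible HSP70 copies cannot be told apart well by short reads: the coding sequences of HSPA1A and HSPA1B, both 1926 bases, differ at 4 positions. Their sum was 117 and 142 CPM after siNT1 and 156 and 155 after siGGGGGC in PC3, and 42.0 and 72.2 against 35.9 and 42.5 in HeyA8. As counted, HSPA1A was at 57.5 and 69.4 CPM after siNT1 and 84.5 and 83.8 after siGGGGGC in PC3, and at 18.5 and 30.9 against 18.4 and 21.2 in HeyA8. HSPA1B was at 59.5 and 72.6 against 71.5 and 71.3 in PC3 and at 23.5 and 41.3 against 17.6 and 21.4 in HeyA8. None of these differences passed the test, with HSPA1B at 0.13 ± 0.19 in PC3 and -0.68 ± 0.24 in HeyA8 (adjusted p = 0.463), and HSPA1A at 0.42 ± 0.17 (adjusted p = 0.141) and -0.26 ± 0.27.

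In PC3 the TRiC/CCT subunits and the listed HSP90 co-chaperones had positive values after siGGGGGC, and some of them rose. Of the 44 members 4 rose and 0 fell, when 3.67% of the 15136 genes tested rose and 6.00% fell; 15 members had an unadjusted p under 0.05, 12 of them higher, against 32.1% of all genes. The members' median was 0.11, against 0.00 over all genes tested, and 35 of 44 had a positive value. All 8 TRiC/CCT subunits had positive values, from CCT8 and CCT6A at 0.12 ± 0.15 and 0.08 ± 0.14 to CCT4. CCT4 was at 344 and 317 CPM after siNT1 and at 480 and 522 after siGGGGGC, a rise of 0.60 ± 0.14 on the log2 scale (adjusted p = 0.0385). CCT7 was at 359 and 386 after siNT1 and 514 and 611 after siGGGGGC, a rise of 0.59 ± 0.15 (adjusted p = 0.0464). CCT2 was at 381 and 376 against 502 and 508, a difference of 0.42 ± 0.13 (adjusted p = 0.0823). TCP1, the alpha subunit, was at 345 and 325 against 404 and 354, a difference of 0.18 ± 0.15. Under other settings some members were called lower. DESeq2 called 7 members higher and 2 lower, and the fit without the siCAG libraries 1 and 1. The fit without a filter called 4 and 1, and mock as the control 4 and 1. In the same order these settings called 18.9%, 8.04%, 8.96% and 21.1% of all genes.

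The other 2 genes that rose in PC3 work beside the large chaperones. STIP1 (HOP), which bridges HSP70 and HSP90, was at 382 and 394 CPM after siNT1 and at 565 and 598 after siGGGGGC, a rise of 0.58 ± 0.13 (adjusted p = 0.0385). DNAJB6, a J-domain protein known to hold back protein aggregation, was at 170 and 171 after siNT1 and at 265 and 307 after siGGGGGC, a rise of 0.74 ± 0.14 (adjusted p = 0.0268). In HeyA8 DNAJB6 was at 161 and 188 after siNT1 and 194 and 345 after siGGGGGC, a difference of 0.59 ± 0.25 (adjusted p = 0.519). Against mock in place of siNT1, the PC3 changes were 1.03 ± 0.14 for DNAJB6 (adjusted p = 0.00686), 0.58 ± 0.14 for CCT4 (adjusted p = 0.0258), 0.58 ± 0.15 for CCT7 (adjusted p = 0.0319) and 0.43 ± 0.13 for STIP1 (adjusted p = 0.0536), in a comparison that called 5 members and 21.1% of all genes. All 5 prefoldin subunits on the list had positive values in PC3. PFDN1 was at 71.8 and 70.7 CPM after siNT1 and 92.4 and 115 after siGGGGGC, a difference of 0.53 ± 0.16 (adjusted p = 0.0726), and PFDN1 in HeyA8 was at 79.9 and 79.0 against 101 and 137, a difference of 0.58 ± 0.24 (adjusted p = 0.517). CHORDC1 had the highest value of the 44 in PC3, 0.76 ± 0.32 (adjusted p = 0.143), but its siGGGGGC libraries at 79.9 and 95.5 CPM were below the mock libraries. None of the 4 calls held when either siNT1 library or the 48 h siGGGGGC library was left out, when the lines were fitted together, or when the 4 compared libraries were fitted alone. CCT4, CCT7 and STIP1 were also lost without the time term and without the siCAG libraries (adjusted p from 0.0518 to 0.0629). The changes stayed at 0.65 to 0.82 for DNAJB6, 0.45 to 0.65 for CCT4, 0.43 to 0.61 for CCT7 and 0.48 to 0.62 for STIP1 with those 3 libraries left out in turn, and without either siNT1 library 0 of all genes tested were called.

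**Figure D3:**
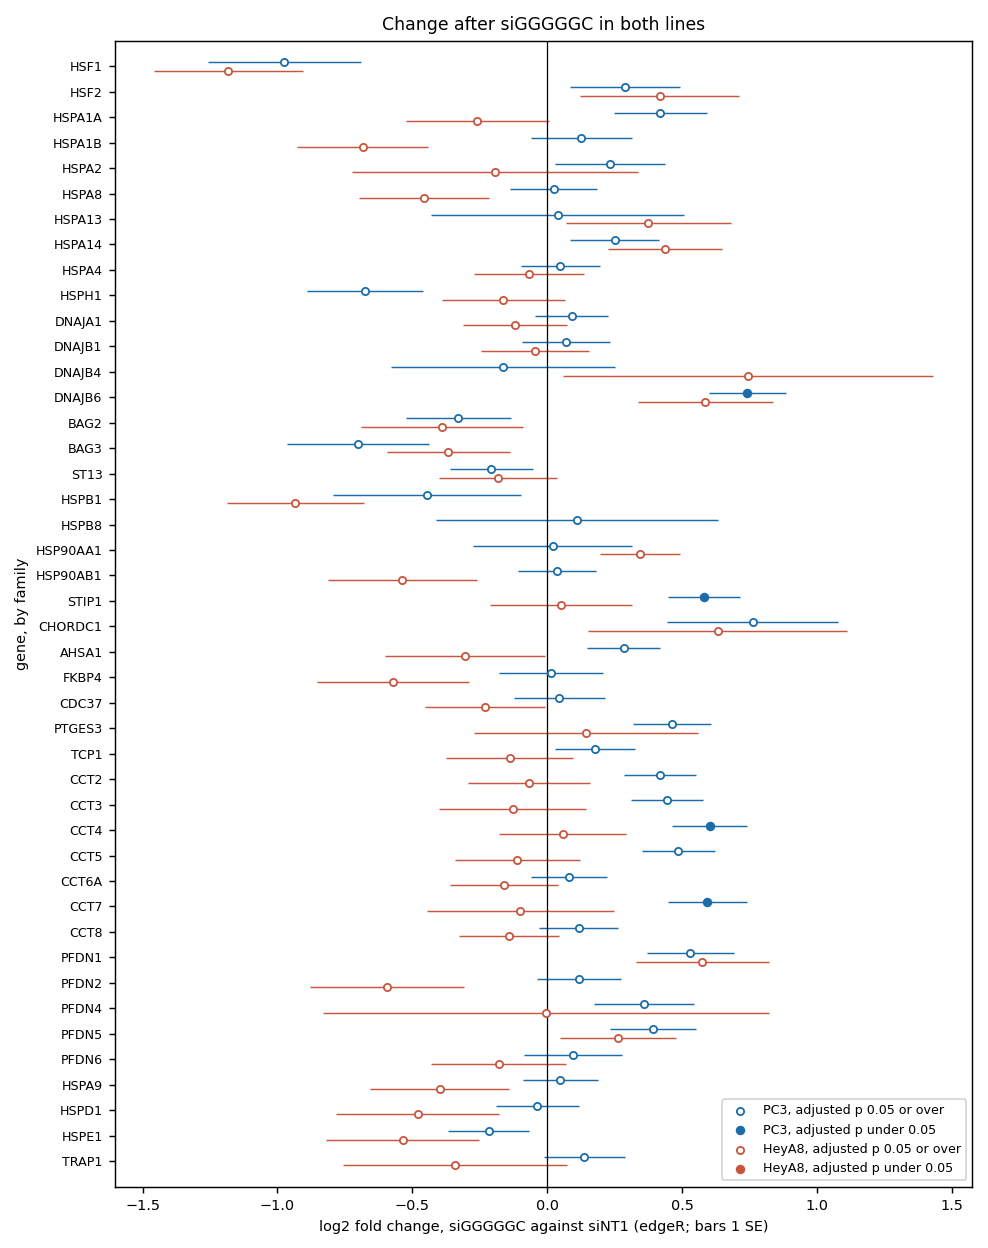
Log2 fold change after siGGGGGC against siNT1 for the 44 genes, PC3 in blue and HeyA8 in red, bars for 1 SE, filled points for an adjusted p under 0.05. The 8 TRiC/CCT subunits lie to the right of 0 in PC3 and within 0.16 of 0 in HeyA8, while HSF1 lies near -1 in both.

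In HeyA8, 0 of 43 members tested were called by edgeR after siGGGGGC with the 8 libraries, where 0 of the 13872 genes tested passed, and 3 members had an unadjusted p under 0.05, all lower, against 9.75% of all genes. DESeq2 called 1 member, HSF1, and 2.29% of all genes. With the 4 compared libraries alone edgeR called 8 members and 8.86% of all genes, and without the siCAG libraries 3 members and 3.52%. The members' median was -0.14, against 0.00 over all genes tested. HSPB1 (HSP27), the small heat shock protein, was at 129 and 111 CPM after siNT1 and 79.0 and 49.0 after siGGGGGC, a difference of -0.93 ± 0.25 (adjusted p = 0.341). In PC3 it was at 159 and 122 against 157 and 58.9, so only the 48 h library lay below the siNT1 libraries, with a difference of -0.45 ± 0.35. TCP1 was at 600 and 664 against 579 and 570 in HeyA8, and CCT2 at 592 and 694 against 600 and 627.

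HSPA8, HSP90AB1 and HSPD1 had their lower siGGGGGC value in HeyA8 at 48 h, and none of them passed the test. HSPA8 was at 3978 and 5168 CPM after siNT1 and at 3753 and 2916 after siGGGGGC. HSP90AB1 was at 3543 and 4267 against 3311 and 2212. HSPD1 was at 1462 and 1825 against 1421 and 989. For these 3 genes the 24 h libraries differed by at most 0.10 on the log2 scale and the 48 h libraries by -0.83, -0.95 and -0.88, and the values over both times were -0.46 ± 0.24, -0.54 ± 0.28 and -0.48 ± 0.30. HSP90AA1 went the other way in the same libraries, at 5463 and 5886 after siNT1 and 6739 and 7672 after siGGGGGC, a difference of 0.34 ± 0.15 (adjusted p = 0.519). In PC3 the siGGGGGC and siNT1 libraries overlapped for HSPA8 (2026 and 2426 against 2406 and 2088), HSP90AB1 (2464 and 2593 against 2768 and 2416) and HSP90AA1 (3319 and 2261 against 2427 and 3017), with differences of 0.02 to 0.04. HSPD1 in PC3 was at 1192 and 1077 against 1143 and 1065, a difference of -0.04 ± 0.15. A difference in the siGGGGGC response between the lines passed the interaction test for no member: edgeR called 0 of 44, DESeq2 called 0, and 1, HSPA1B at 0.81 ± 0.31 (PC3 minus HeyA8), had an unadjusted p under 0.05, against 6.63% of all genes.

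The seed of siGGGGGC pairs with GCCCCC in an mRNA, and these letters were counted in the MANE Select transcript of each gene (GENCODE release 44, hg38). In the 3′ UTR, 4 of 44 members (9.09%) held the match, against 3839 of the 12613 genes tested in PC3 that have such a transcript (30.4%). In the coding sequence 9 of 44 (20.5%) held it, against 43.2%. The 4 sites in 3′ UTRs are shown with the match in capitals, each on the strand of its gene, because they are all the members have:

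CCT3, chr1:156309066-156309095, minus strand: ggttggggggcaGCCCCCagtccctttctg
BAG2, chr6:57188647-57188676, plus strand: gaactgaattttGCCCCCaaaacctatgtc
FKBP4, chr12:2803281-2803310, plus strand: ctgcggctgcctGCCCCCcagtctccccac
CDC37, chr19:10391317-10391346, minus strand: tcactgcctgcaGCCCCCcatcagcattat

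None of the 4 genes with a site was called in PC3 by edgeR with the 8 libraries, and in HeyA8 the same fit called no gene at all. In PC3 the changes were 0.44 ± 0.13 for CCT3, -0.33 ± 0.20 for BAG2, 0.01 ± 0.19 for FKBP4 (FKBP52, an HSP90 immunophilin) and 0.04 ± 0.17 for CDC37, which brings kinases to HSP90. In HeyA8 they were -0.13 ± 0.27, -0.39 ± 0.30, -0.57 ± 0.28 and -0.23 ± 0.22, with a lowest adjusted p of 0.572. In coding sequences HSF1 held 6 matches and BAG3 and HSPB1 4 each, with 0 in their 3′ UTRs, and these were the 3 members with 4 or more (6.82% of members and 8.21% of genes tested in PC3). Their changes in PC3 ran from -0.97 to -0.45, and in HeyA8 from -1.18 to -0.37. Of the 519 genes tested in PC3 with 4 or more coding matches and none in the 3′ UTR, the median change was -0.09, and over 471 such genes in HeyA8 it was -0.16. The 6 members with 1 coding match (CCT7, HSPA1A, HSPA1B, HSPA4, PFDN1 and TRAP1) had a median of 0.28 in PC3 and -0.18 in HeyA8, beside 0.11 and 0.03 over all genes with 1 coding match and none in the 3′ UTR. Members with no match in either had medians of 0.12 and -0.12, beside 0.05 and 0.07 over all such genes. Over all members the change had a Spearman rho with the number of coding matches of -0.11 in PC3 and -0.29 in HeyA8. Over all genes with a value it was -0.05 and -0.18. HSF1, BAG3 and HSPB1 also had a high coding GC content, at 63.6%, 60.9% and 68.3%. With coding GC the members' rho was -0.092 in PC3 and -0.563 in HeyA8, and that of all genes 0.182 and -0.246. Match counts and GC content describe the sequences and were not tested as a cause.

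Among the siRNA comparisons with siNT1, siCAG in HeyA8 had the most members called when the 8 libraries of a line were fitted. There 11 of 43 members fell and 0 rose, when 4.93% of the 13872 genes tested fell and 2.88% rose. The members' median was -0.74, against -0.01 over all genes tested, and 36 of 43 had a negative value. Without the 24 or the 48 h siNT1 library only HSP90AA1 was still called, and without the 24 or the 48 h siCAG library 27 or 21 members were. Those fits called 0.376%, 0.291%, 31.5% and 32.9% of all genes in the same order, with the 24 h siNT1 library first, where all 8 libraries called 7.81%. HSP90AA1 was at 5463 and 5886 CPM after siNT1, 6205 and 6292 in mock cells and 1604 and 1549 after siCAG. The means were 5674 ± 299 after siNT1 and 1577 ± 38.5 after siCAG (SD, n = 2), and the log2 fold change was -1.85 ± 0.15 (adjusted p = 0.00382). Both siCAG libraries lay below every other HeyA8 library, and the call held under all 11 alternatives run, each of the 4 compared libraries left out in turn included, with values from -1.99 to -1.71. The constitutive HSP90AB1 was at 3543 and 4267 after siNT1 and 3485 and 2054 after siCAG, a difference of -0.54 ± 0.28 (adjusted p = 0.240) carried by the 48 h library.

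Several partners of HSP90 and HSP70 were low in the same libraries. PTGES3 (p23), a co-chaperone that holds HSP90 in its closed state, was at 719 and 726 CPM after siNT1 and 87.9 and 279 after siCAG, a log2 fold change of -2.097 ± 0.44 (adjusted p = 0.0395). HSPH1 was at 415 and 530 against 158 and 233, a log2 fold change of -1.28 ± 0.23 (adjusted p = 0.0293). DNAJA1, a J-domain protein, fell by 0.84 ± 0.19 (adjusted p = 0.0483). HSPA1B was at 23.5 and 41.3 after siNT1 and 10.5 and 13.6 after siCAG, a log2 fold change of -1.39 ± 0.25 (adjusted p = 0.0284), and its near copy HSPA1A was at 18.5 and 30.9 against 11.7 and 23.7, a difference of -0.51 ± 0.27 (adjusted p = 0.247). Their sum went from 42.0 and 72.2 to 22.2 and 37.3 CPM. HSPA2 had the lowest value, -2.89 ± 0.65 (adjusted p = 0.0468), but it rests on 29 and 21 counts after siNT1 and 6 and 1 after siCAG. HSPA8 was at 3978 and 5168 CPM against 2708 and 2090, a difference of -0.93 ± 0.24 (adjusted p = 0.0635).

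Chaperonins of both compartments were among the genes that fell. HSPD1 was at 1462 and 1825 CPM after siNT1 and 727 and 408 after siCAG, a log2 fold change of -1.58 ± 0.31 (adjusted p = 0.0353). HSPE1 (HSP10), its lid, was at 185 and 238 against 102 and 79.8, a log2 fold change of -1.23 ± 0.29 with an adjusted p of 0.04998. Against mock in place of siNT1, 10 members and 8.97% of all genes were called, with HSPE1 (adjusted p = 0.0515) and HSPA2 (adjusted p = 0.0666) lost and HSPA4, an HSP110, gained at -0.87 ± 0.21 (adjusted p = 0.0486). TCP1 was at 600 and 664 against 323 and 216, a log2 fold change of -1.24 ± 0.24 (adjusted p = 0.0343). Beside TCP1, CCT6A fell by 1.05 ± 0.20 (adjusted p = 0.0340) and CCT8 had a log2 fold change of -1.001 ± 0.19 (adjusted p = 0.0312). CCT2 was at 592 and 694 against 446 and 327, a difference of -0.73 ± 0.23 (adjusted p = 0.0922). The other 4 TRiC/CCT subunits ran from -0.62 ± 0.24 for CCT4 to -0.13 ± 0.27 for CCT3, and CCT3 and CCT7 were above siNT1 at 24 h (0.34 and 0.23) and below it at 48 h (-0.64 and -1.10).

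Not every member was lower after siCAG in HeyA8. HSF1 was at 181 and 144 CPM after siNT1 and at 267 and 194 after siCAG, a difference of 0.50 ± 0.27 (adjusted p = 0.267), and in PC3 at 125 and 112 against 141 and 182, 0.46 ± 0.28. Prefoldin subunits were spread widely. PFDN5 was at 136 and 124 against 226 and 239, a difference of 0.84 ± 0.21 (adjusted p = 0.0599), and PFDN1 at 79.9 and 79.0 against 94.7 and 77.9. PFDN4, named here after its values were seen, was at 36.9 and 41.3 after siNT1 and at 2.92 and 43.1 after siCAG, so the 24 h library alone was low. BAG3 (142 and 149 against 131 and 100), DNAJB1 (101 and 143 against 89.7 and 117) and HSPB1 (129 and 111 against 131 and 98.0) had adjusted p values of 0.358, 0.466 and 0.863.

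**Figure D4:**
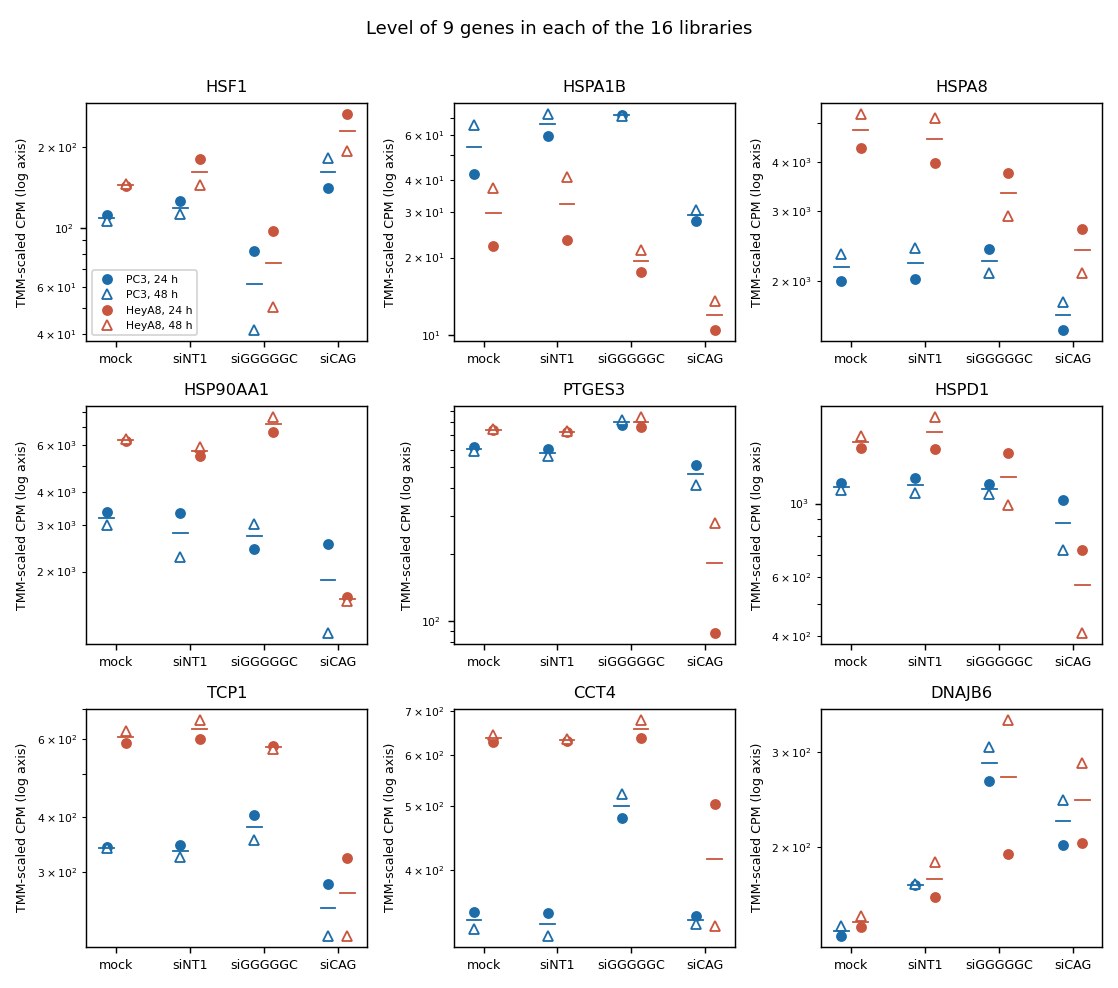
Levels of 9 genes in every library, TMM-scaled CPM on log axes, by siRNA, with PC3 in blue, HeyA8 in red, filled circles for 24 h, open triangles for 48 h and short lines for the mean of both. HSF1 is lowest after siGGGGGC in both lines, and HSP90AA1 and PTGES3 are lowest after siCAG in HeyA8, at means of 1577 and 183 CPM.

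The siCAG libraries of HeyA8 also differed in make-up. All 44 members together took 2.59% and 2.89% of counts at 24 and 48 h after siNT1 and 1.76% and 1.35% after siCAG. The most abundant gene, EEF1A1, took 0.991% and 1.14% after siNT1 and 1.97% and 2.02% after siCAG. Over the 43 members the change after siCAG went up with the GC content of the coding sequence, with a Spearman rho of 0.525, and over 11740 genes of the same libraries rho was 0.278. Such values were not particular to siCAG. Over the members rho was 0.606 for siNT1 against mock and -0.563 for siGGGGGC against siNT1 in HeyA8, and 0.620 between the mock lines. Over all genes with a value these were 0.3355, -0.246 and 0.156. In PC3 the members' rho was 0.2445 for siNT1 against mock, -0.092 for siGGGGGC against siNT1 and 0.088 for siCAG against siNT1. The part of these differences in the result was not tested.

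In PC3 fewer members were called after siCAG, a difference between the lines that turned round with the 4 compared libraries alone, where 12 members and 2346 of 14669 genes were called in PC3 and 3 members and 4.31% of all genes in HeyA8. With all 8 libraries 1 of the 44 members fell, when 1.16% of genes tested fell, and the members' median was -0.18, against -0.01 over all genes tested. The 1 gene was HSPA1B, at 59.5 and 72.6 CPM after siNT1 and 27.7 and 30.7 after siCAG, with means of 66.0 ± 9.24 and 29.2 ± 2.11 (SD, n = 2) and a log2 fold change of -1.17 ± 0.19 (adjusted p = 0.0311). Both siCAG libraries lay below the siNT1 libraries and below the mock libraries at 42.2 and 65.9 CPM. The sum with HSPA1A went from 117 and 142 to 73.0 and 83.1 CPM, and HSPA1A alone was at 57.5 and 69.4 against 45.3 and 52.4, -0.37 ± 0.17 (adjusted p = 0.401). With any of the 4 libraries left out the HSPA1B change stayed between -1.25 and -1.10 but the call was lost (adjusted p from 0.0938 to 0.518), in fits that called 30 to 114 genes lower where all 8 libraries called 176. The call was also lost against mock (-0.87 ± 0.19, adjusted p = 0.0590), without the time term and with all 16 libraries in 1 fit.

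HSPA1A and HSPA1B were also the only members with 4 CTG triplets in a row, the complement of the CAG in the name of siCAG. They are 4.55% of members, and 2.83% of genes tested in PC3 hold such a run. At least 6 in a row were held by 0 of 44 members and 0.504% of 19061 genes. Beside HSPA1B, the members called after siCAG in HeyA8 had longest runs of 1 or 2. The runs of HSPA1A and HSPA1B lie in their coding sequences and are shown in capitals, both on the plus strand:

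HSPA1A, chr6:31816918-31816947: gtgcaggacCTGCTGCTGCTGgacgtggct
HSPA1B, chr6:31829112-31829141: gtgcaggacCTGCTGCTGCTGgacgtggct

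The 30 bases are the same in both, while the changes as counted differed, and whether siCAG pairs with them was not tested. Among the other members in PC3, HSPA2 was at 15.6 and 15.6 CPM after siNT1 and 10.5 and 7.15 after siCAG, without overlap and not called. HSPH1 was at 378 and 283 CPM against 289 and 156, -0.60 ± 0.22 (adjusted p = 0.286), with overlapping groups. HSP90AA1 was at 3319 and 2261 against 2542 and 1173, -0.62 ± 0.29 (adjusted p = 0.410), with overlapping groups. HSPA8 was at 2026 and 2426 against 1503 and 1773, -0.44 ± 0.16 (adjusted p = 0.292). TCP1 was at 345 and 325 against 282 and 215, -0.44 ± 0.15, and HSPD1 at 1192 and 1077 against 1025 and 725, -0.39 ± 0.15. All 5 prefoldin subunits on the list had positive values, of which PFDN1 at 85.2 and 107 CPM after siCAG had the highest, 0.42 ± 0.16 (adjusted p = 0.312). DNAJB6 at 202 and 244 was at 0.38 ± 0.14 (adjusted p = 0.298). The groups overlapped for HSP90AB1 (0.01 ± 0.14), CCT4 (0.02 ± 0.14), CCT7 (-0.02 ± 0.15) and BAG3 (-0.32 ± 0.26).

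**Figure D5:**
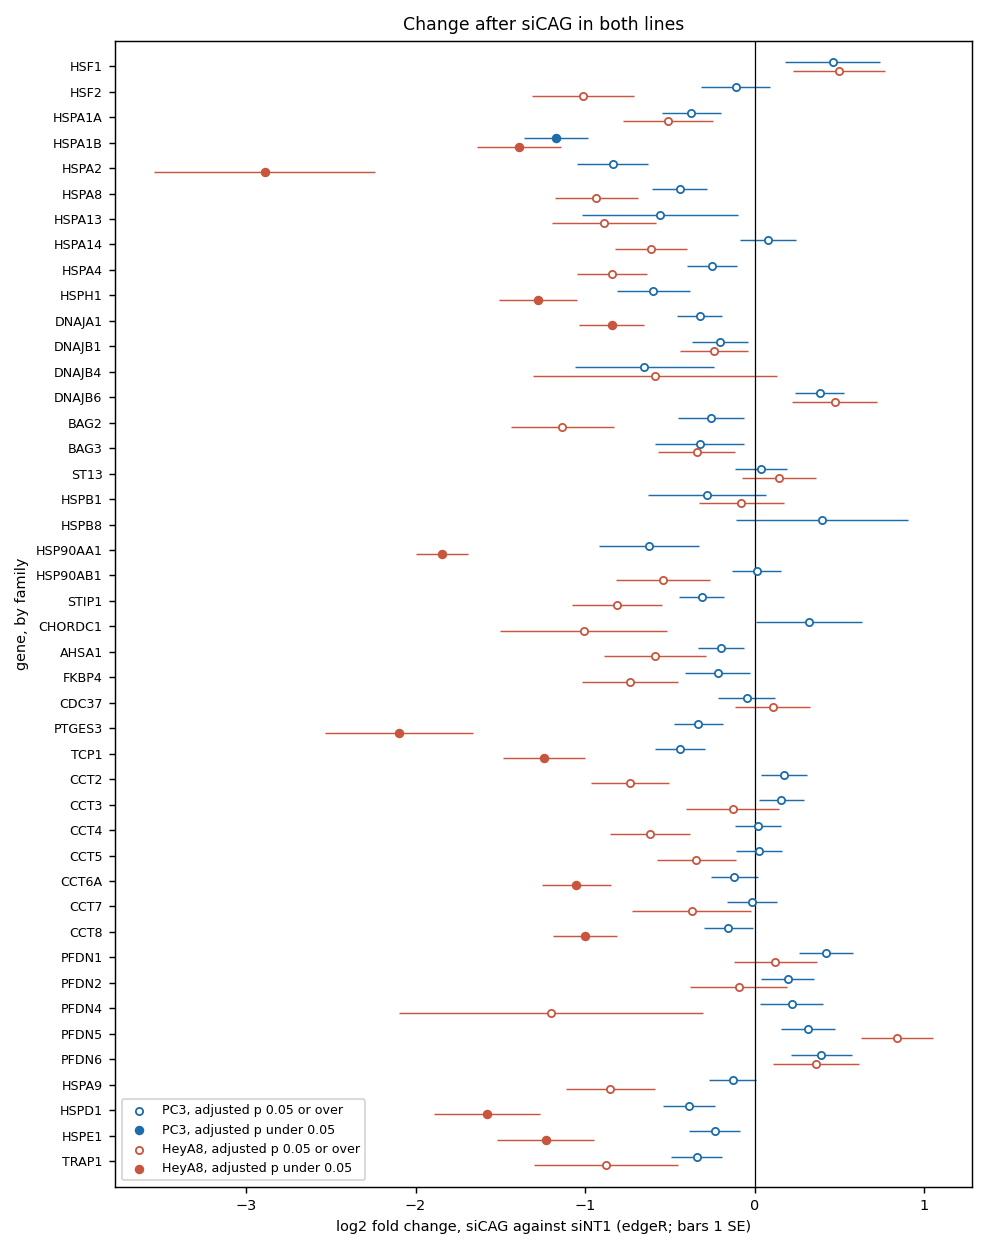
Log2 fold change after siCAG against siNT1 for the 44 genes, PC3 in blue and HeyA8 in red, bars for 1 SE, filled points for an adjusted p under 0.05. In HeyA8 11 filled points lie between -2.89 and -0.84, and in PC3 HSPA1B at -1.17 is the only filled point.

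The siCAG responses of the lines were compared directly by an interaction term over all 16 libraries. edgeR called 0 of 44 members, and 12 had an unadjusted p under 0.05, 11 of them with the lower value in HeyA8, against 14.6% of all genes. DESeq2 called 3 members and 4.22% of all genes. The lowest adjusted p was that of PTGES3, 1.67 ± 0.46 (adjusted p = 0.138), followed by HSPA2 and CCT6A at 1.91 ± 0.57 and 0.82 ± 0.25, and HSP90AA1 was at 1.11 ± 0.37 (adjusted p = 0.203). The median of all genes tested was -0.13 in this contrast and that of the members 0.39. Without the 24 or the 48 h siCAG library of HeyA8, 11 or 4 members and 9.24% or 6.36% of all genes were called. With all 16 libraries a difference between the lines was thus shown for no member by edgeR.

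The difference between 48 and 24 h, over all conditions of a line, was called for 0 of 44 members in PC3 by edgeR and by DESeq2, and 4 had an unadjusted p under 0.05, where 13.4% of all genes did. These were PFDN5 at 0.43 ± 0.11 and, with lower values at 48 h, BAG2 at -0.46 ± 0.14, HSPH1 at -0.36 ± 0.15 and HSPE1 at -0.31 ± 0.11. In HeyA8 0 of 43 were called by edgeR and by DESeq2, and 3 had an unadjusted p under 0.05, where 6.34% of all genes did: HSPA1A, HSPA1B and DNAJB1, all 3 higher at 48 h.

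Of other genes of protein folding, a list of 80 chaperones, J-domain proteins, co-chaperones and stress regulators, some rose and some fell. After siGGGGGC in PC3, 3 of 76 tested fell and 4 rose, where 6.00% and 3.67% of all genes did. They included HSP90B1 (GRP94), the HSP90 of the endoplasmic reticulum, at -1.07 ± 0.17 (adjusted p = 0.0165), TOMM34 at -1.19 ± 0.28, BAG6 at -0.90 ± 0.22 and GRPEL1, the exchange factor of mitochondrial HSP70, at 0.83 ± 0.17. After siCAG in PC3, 3 of 76 fell and 0 rose (1.16% of all genes fell), all 3 J-domain proteins: DNAJC5 at -1.65 ± 0.16 (adjusted p = 0.00352), DNAJA2 at -0.90 ± 0.14 and DNAJB11 at -0.78 ± 0.14. After siCAG in HeyA8, 7 of 74 fell and 4 rose, where 4.93% and 2.88% of all genes did. The largest changes there were DNAJC9 at -2.14 ± 0.32 (adjusted p = 0.0184), HSF4 at 1.83 ± 0.37, FKBP5 at -1.78 ± 0.38 and DNAJB2 at 1.505 ± 0.31. After siGGGGGC in HeyA8, 0 of 74 were called by edgeR and 3 had an unadjusted p under 0.05. Between siNT1 and mock, 1 of 76 rose in PC3, where 0.205% of all genes did, DNAJC15 at 1.74 ± 0.24 (adjusted p = 0.0434), and 0 of 74 were called in HeyA8, where 1 had an unadjusted p under 0.05. Between the mock lines 19 of 76 were lower in PC3 and 10 higher, where 22.0% and 29.0% of all genes were.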

How the data were processed

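The deposited values are whole-number counts of reads per gene, which the authors made from total RNA libraries with STAR and HTSeq on hg38, per the labels and the study's methods, without normalization. The table has 16 sample columns, and 0 columns belong to no sample. Libraries were grouped by line, siRNA and time as labelled. In each line the genes that passed filterByExpr were scaled by TMM and fitted in edgeR 4.0.16 (R 4.3.3) with siRNA and time as terms of a quasi-likelihood model over 8 libraries, which leaves 3 residual degrees of freedom. Lines and interactions were fitted over 16 libraries. DESeq2 1.42.0 was an alternative. Others were RLE size factors, no filter, no time term, mock as the control, 4 or 16 libraries in the fit, and each library left out, with the siCAG libraries left out added after seeing the data. Single-time ratios used a pseudocount of 0.05 CPM. Length scaling used GENCODE release 44 transcripts, on levels with TMM over all 16 libraries. The fits were tested on simulated data. The members, the other gene lists and the tests were chosen with earlier results of these data known. Members with a call after an siRNA (at most 6 per comparison, by size of change) and 15 chosen genes are given by single library, though not for every comparison. The spread between libraries, as a coefficient of variation, was 17.97% in PC3 and 28.2% in HeyA8. Reads of genes with many processed pseudogenes, such as HSPE1 (26), HSPD1 (18), HSPA8 (17) and ST13 (17), may be split between copies.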

Additional observations from a re-analysis of the deposited data

How the results depend on the processing

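Counts of called members depended on the fit. Single genes were followed only if called with the 8 libraries, plus HSF1 after siGGGGGC, so they were picked for a large change. Of 132 such values under other settings 97 kept their side of the threshold, 30 lost it, 5 gained it and 0 reversed direction. With 1 library left out, 0 of 72 values reversed direction. Over all members tested, signs at 24 and 48 h were the same less often. After siGGGGGC this held for 29 of 44 in PC3 and 36 of 43 in HeyA8, and after siCAG for 40 of 44 and 34 of 43. With siGGGGGC in PC3 (4 called) DESeq2 called 9, the fit without a time term 1, the 4 compared libraries alone 0, the fit without the siCAG libraries 2 and the 16-library fit 0, beside 18.9%, 4.13%, 2.99% and 8.04% of all genes and, in the last, 333 of 15887 (9.67% with the 8 libraries), and leaving out 1 library gave 0 to 12, with 12 without the 24 h siGGGGGC library, where 23.5% of all genes were called, and 0 without either siNT1 library, where no gene was. With siCAG in PC3 (1 called) the counts in the same order were 2, 0 and 12, with 0 against mock and 0 in the 16-library fit, beside 3.78%, 1.09%, 2346 of 14669, 2.58% and 0.617% of all genes, and 0 to 0 with 1 library left out. With siGGGGGC in HeyA8 (0 called) DESeq2 called 1, the 4 libraries alone 8 and the fit without siCAG libraries 3, beside 2.29%, 8.86% and 3.52%. With siCAG in HeyA8 (11 called) DESeq2 called 19, the 4 libraries alone 3 and the 16-library fit 17, beside 19.2%, 4.31% and 21.0%, and leaving out 1 library gave 1 to 27, with 1 without either siNT1 library, 27 without the 24 h and 21 without the 48 h siCAG library. Between siNT1 and mock DESeq2 called 1 in PC3 and the 4 libraries alone 4 in HeyA8, beside 1.76% and 11.8%. Between mock lines (24 called) leaving out 1 library gave 15 to 19, in fits that also called a smaller share of all genes. For the siCAG interaction (0 called) DESeq2 called 3, beside 4.22%, and leaving out 1 library gave 0 to 11. The causes were not tested. The time term pairs the libraries of a line by 24 and 48 h, so the counts without it are those of the unpaired fit. The spread between libraries was larger in HeyA8, with a coefficient of variation of 28.2% against 17.97%, and single-library values of low genes such as HSPB8 and HSPA2 are limited by their counts.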
